A study of Cucumis melo with 9 samples.

Results

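The genes described here carry out autophagy, the sorting of proteins to the vacuole, and the budding and fusion of transport vesicles. They were taken from the deposited gene table by the words of its description column: autophagy, vacuolar protein sorting, vacuolar sorting, syntaxin, SNARE, vesicle-associated, exocyst, coatomer, clathrin or Ras-related protein Rab. That rule, which uses no measured value, found 247 of 29980 genes, 26 named for autophagy and 221 for trafficking. Of these, 182 had a mean above 1 FPKM (reads scaled by gene length and library size) over the 9 libraries and were tested, 19 of them autophagy genes and 163 trafficking genes. The other 65 comprised 32 genes without a single count and 33 with few.

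The libraries were RNA-seq of ripe fruits of the melon Cucumis melo, cultivar 'HT', grown in a greenhouse, with 3 libraries in each of 3 groups. Chilled fruit (group B) was held 8 d at 4°C, recovered fruit (group A) spent 7 d at 4°C followed by 1 d at about 22°C, and unchilled fruit (group C) was harvested on day 8, so 8 d later than the fruit of A and B. Groups A and B therefore differ in the warm day, while both differ from C in cold storage and harvest date at once, and these 2 cannot be told apart. The fruits held at 4°C were described as free of chilling injury. Nothing says whether the libraries of a group came from separate plants, so p-values measure only the spread between these samples.

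In autophagy a double membrane closes around cytoplasm and delivers it to the vacuole. The ATG1 kinase complex starts the membrane, ATG9, ATG2 and the ATG18 proteins extend it, and the ubiquitin-like ATG8, attached to lipid by ATG3, ATG5 and other enzymes, lines it and binds cargo receptors. Other cargo moves in vesicles: clathrin and coatomer coats form them, Rab GTPases give them an address, the exocyst tethers them to the plasma membrane, and SNARE proteins such as syntaxins and VAMPs fuse the membranes. Vacuolar sorting receptors, retromer and the ESCRT complexes steer proteins between endosomes and vacuole.

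The libraries held 15508367 to 19011486 counts. Within groups they differed beyond sampling noise, by a chi-square per gene of 6.98 to 54.2, where sampling alone gives about 1. The first chilled library stood apart from the other 2 (39.5 and 47.3, against 6.98 between those), as did the first unchilled library (54.2 and 45.9, against 15.9). Levels are given as FPKM divided by the TMM factor of the library, which lay between 0.764 and 0.809 in chilled fruit, 1.11 and 1.13 in unchilled fruit and 1.12 and 1.13 in recovered fruit. With library totals in place of TMM, the median over the 15022 tested genes moved from -0.06 to -0.56 (log2 fold change) in chilled against unchilled fruit, and from -0.02 to 0.49 in recovered against chilled fruit, so the called genes of each list and family are counted on both scalings. The ripening enzyme ACC oxidase 1 (MELO3C014437.2), which makes ethylene, was at 1058 to 1423 in unchilled, 466 to 593 in chilled and 633 to 2421 in recovered libraries. Its chilled libraries were below all others. The summed level of 19 genes for chlorophyll-binding proteins was 16040 to 24040 in unchilled, 4788 to 5781 in chilled and 5942 to 7632 in recovered fruit, and that of 28 phloem genes 302 to 554, 237 to 318 and 81.4 to 111. The sum of 18 seed genes, like that of the autophagy genes below, was highest in chilled fruit, at 141 to 181 against 84 to 97.6 in unchilled and 41.5 to 42.8 in recovered fruit. That of 22 cutin and wax genes was 1060 to 3407 in unchilled, 401 to 803 in chilled and 493 to 1139 in recovered fruit, and that of 112 chloroplast-encoded genes 83.6 to 139, 133 to 185 and 91.6 to 102. In chilled against unchilled fruit 1 of 17 tested chlorophyll-binding genes rose and 13 fell. The counts were 4 and 5 of 10 for phloem and 3 and 1 of 6 for seed genes. They were 0 and 6 of 16 for cutin and wax and 5 and 1 of 21 for chloroplast-encoded genes (22.1% and 26.2% over all tested genes). In recovered against unchilled fruit 10 of 17 tested chlorophyll-binding genes, 5 of 10 phloem, 3 of 6 seed, 6 of 16 cutin and wax and 1 of 21 chloroplast-encoded genes fell and none rose. Over all tested genes 9.15% fell and 3.66% rose. The part of tissue make-up in the differences reported here was not tested, and in bulk fruit fewer cells of a type and less RNA per cell cannot be told apart.

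Autophagy genes changed in both directions in the cold, and the highest levels were reached by an ATG8 and an ATG18 gene. In chilled against unchilled fruit 7 of 19 tested autophagy genes rose and 4 fell, which is 57.9% called, where 48.3% of all 15022 tested genes were called, 22.1% higher and 26.2% lower (edgeR's quasi-likelihood test, absolute log2 fold change above 1 and adjusted p below 0.05, n = 3 libraries per group). Their median log2 fold change was 0.50, against -0.06 over all tested genes. With library totals 4 rose and 4 fell (14.9% and 37.9% over all tested genes) and the median was 0.01, but the distance between the autophagy median and that of all genes was 0.56 on either scaling. The 3 libraries of one group lay wholly apart from those of the other for 18 of the 19, as they did for 78.3% of all tested genes.

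**Figure D1:**
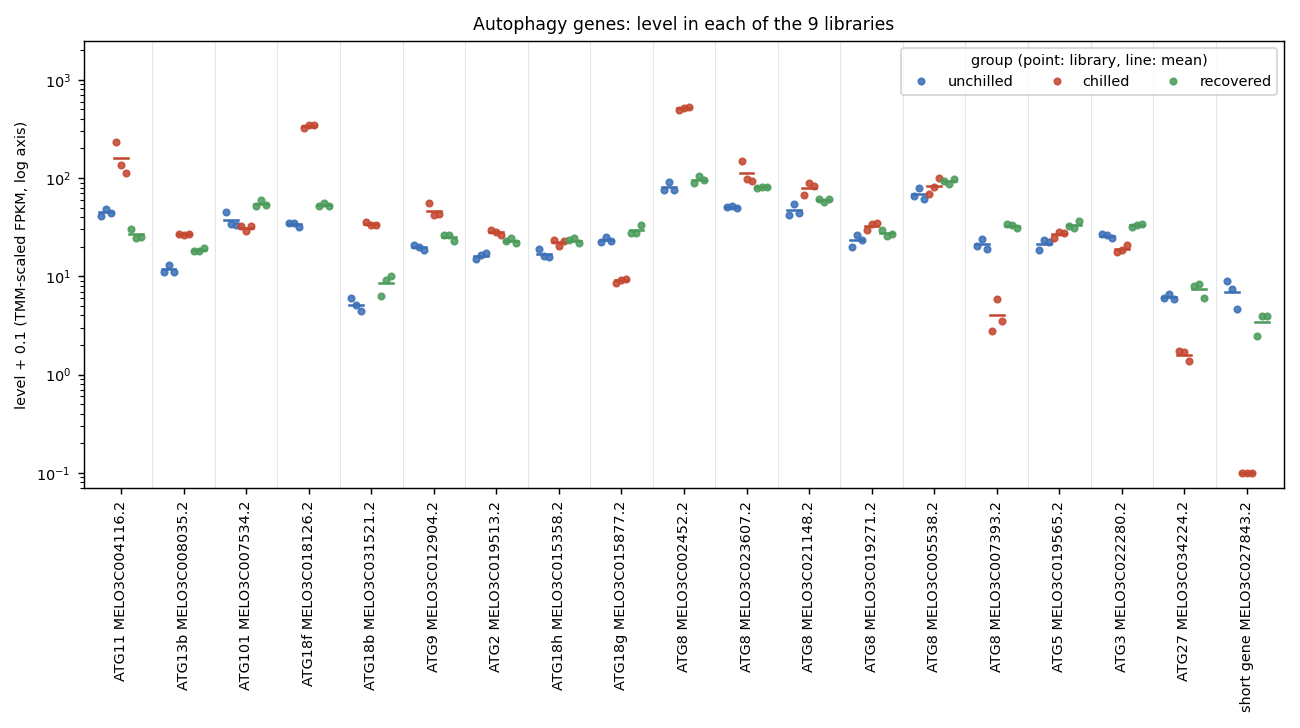
Level of the 19 tested autophagy genes in each of the 9 libraries (TMM-scaled FPKM plus 0.1, log axis; points are libraries, short lines group means; genes are grouped from the ATG1 kinase complex on the left through ATG9, ATG2 and ATG18 genes, ATG8 genes, conjugation enzymes and others). Chilled libraries of ATG18f and of ATG8 MELO3C002452.2 sit at 326 to 531, far above the rest of their families, while those of ATG18g, ATG27 and ATG8 MELO3C007393.2 lie below the other 2 groups.

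The most abundant autophagy gene was the ATG8 gene MELO3C002452.2 (chromosome 12, 23935881 to 23938201, plus strand). Its level was 75.2, 90.8 and 76.3 in the unchilled, 492, 513 and 531 in the chilled and 89.3, 104 and 95.4 in the recovered libraries. All 3 chilled libraries were above every other library, and unchilled and recovered libraries overlapped. It rose by 2.66 ± 0.10 (log2 fold change ± SE, adjusted p = 4.1e-08) in the cold and fell by 2.41 ± 0.10 after the warm day (adjusted p = 5.6e-08).

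Another ATG8 gene, MELO3C007393.2 (chromosome 8, 2528364 to 2530199, plus strand), went the other way. It was at 20.3, 23.9 and 19.1 in unchilled, 2.69, 5.84 and 3.42 in chilled and 34.3, 33 and 30.9 in recovered libraries. The 3 groups did not overlap, and the recovered libraries were the highest. The gene fell by 2.41 ± 0.24 in the cold (adjusted p = 1.2e-05) and rose by 3.04 ± 0.24 after the warm day (adjusted p = 2.5e-06), and since it overlaps the gene MELO3C007395.2 and the counting is not known to use strand, its counts may be shared.

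Among the other 4 tested ATG8 genes, MELO3C023607.2 rose in the cold by 1.17 ± 0.16 (adjusted p = 0.00012), from 49.4 to 51.7 in unchilled to 150, 97.1 and 94 in chilled libraries. Its first chilled library was the highest, and without it the value was 0.92 and the gene was no longer called. The remaining 3 ATG8 genes, MELO3C005538.2, MELO3C019271.2 and MELO3C021148.2, had log2 fold changes of 0.29, 0.50 and 0.77. The summed level of the 8 ATG8 genes was 273 to 326 in unchilled, 810 to 848 in chilled and 387 to 394 in recovered libraries, so that MELO3C002452.2 alone made up more than the other 7 together in chilled fruit. ATG8 genes form a family of similar sequence, and the sources used here do not say how reads shared by its members were assigned.

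ATG18 proteins bind phosphoinositides on the growing membrane, and their genes split in the same manner. ATG18f (MELO3C018126.2; chromosome 4, 10187929 to 10193166, plus strand) was at 34.7, 35.1 and 31.7 in unchilled, 326, 349 and 350 in chilled and 51.4, 55.1 and 52.5 in recovered libraries. The groups did not overlap, and the chilled mean was 341 ± 13.6 (SD, n = 3) against 33.8 ± 1.87 in unchilled fruit. ATG18f rose by 3.34 ± 0.09 (adjusted p = 1.3e-08), the most of the 19 genes, and fell by 2.69 ± 0.09 after the warm day (adjusted p = 2.2e-08).

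ATG18b (MELO3C031521.2) followed ATG18f at a lower level, with 4.29 to 5.86 in unchilled, 32.9 to 35.6 in chilled and 6.18 to 9.86 in recovered libraries, a rise of 2.75 ± 0.19 and a fall by 2.01 ± 0.18. ATG18g (MELO3C015877.2) fell from 22.2, 25.1 and 22.9 to 8.51, 9.17 and 9.25, by 1.38 ± 0.10 (adjusted p = 1.3e-06), and rose to 27.4, 27.6 and 32.9 after the warm day. Its chilled libraries were below all others. ATG18h (MELO3C015358.2) had a log2 fold change of 0.40 ± 0.10 in the cold and was not called.

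Among the genes acting early in the pathway, ATG11 (MELO3C004116.2), a scaffold of the ATG1 kinase complex, was at 40.9, 48.3 and 44.4 in unchilled, 231, 136 and 111 in chilled and 30.3, 24.6 and 25.1 in recovered libraries. All chilled libraries were above the rest, the first far above the other 2, and the recovered libraries were the lowest. It rose by 1.84 ± 0.25 (adjusted p = 0.00012) and then fell by 2.58 ± 0.25 (adjusted p = 1.5e-05). ATG13b (MELO3C008035.2), another subunit of that complex, rose by 1.19 ± 0.09, and ATG9 (MELO3C012904.2), the membrane protein that seeds the structure, by 1.25 ± 0.12. With library totals the values of ATG13b and ATG9 were 0.69 and 0.75, below the threshold, as was 0.66 for ATG8 MELO3C023607.2.

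The kinase complex subunit ATG101 (MELO3C007534.2), the lipid transfer protein ATG2 (MELO3C019513.2) and the conjugation enzymes ATG3 (MELO3C022280.2) and ATG5 (MELO3C019565.2) had log2 fold changes between -0.44 and 0.80 in the cold and were not called. ATG27 (MELO3C034224.2), known from yeast as a membrane protein needed for ATG9 traffic, fell by 2.03 ± 0.20 from a range of 5.8 to 6.52 in unchilled to one of 1.27 to 1.63 in chilled libraries and rose by 2.29 ± 0.20 afterwards. It overlaps another gene, MELO3C034432.2. The short gene MELO3C027843.2 (183 bases, on the sequence the table numbers 0), described only as autophagy-related, had 68 counts over the 3 unchilled, none over the 3 chilled and 36 over the 3 recovered libraries. Against a floor of 3 counts over the chilled group its level in chilled fruit was at least 16.8-fold below that in unchilled fruit, and it was at least 8.21-fold higher after the warm day, and putting it at these bounds left the list medians as they were.

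After the warm day 4 autophagy genes rose and 4 fell against chilled fruit, 42.1% called, where 50.4% of all tested genes were called, 25.1% higher and 25.3% lower. With library totals 6 rose and 4 fell (36.4% and 17.2% over all tested genes), and the libraries of the groups did not overlap for 16 of the 19 (79.9% over all). The 4 that fell were ATG8 MELO3C002452.2, ATG18f, ATG18b and ATG11, all of which had risen in the cold, and the 4 that rose were those that had fallen. ATG13b, ATG9 and ATG8 MELO3C023607.2, which had risen, had log2 fold changes of -0.54, -0.90 and -0.50 and were not called.

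Against unchilled fruit, recovered fruit had no called autophagy gene, where 12.8% of all tested genes were called, 3.66% higher and 9.15% lower (edgeR, 17 of 19 at an unadjusted p below 0.05). The libraries did not overlap for 16 of the 19, against 52.9% of all tested genes. DESeq2 and limma on log2(FPKM + 1) also called 0, and limma on log2(FPKM + 0.1) called 1, the short gene, as lower. The differences were small and mostly upward: 17 of 19 log2 fold changes were above 0, against 50.8% of all tested genes, and the median was 0.44, against 0.01. At an adjusted p below 0.05 without a fold threshold 13 were higher and 1 lower (68.4% and 5.26%, against 17.4% and 19.1% of all tested genes). The 1 lower gene was ATG11, at -0.74 ± 0.24 (adjusted p = 0.041), and the highest value was 0.74 ± 0.18 for ATG18b.

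The summed level of the 26 autophagy genes was 529 to 602 in unchilled, 1543 to 1622 in chilled and 718 to 732 in recovered libraries. ATG8 MELO3C002452.2 and ATG18f carried most of the difference between chilled and unchilled fruit, since without them the sums were 421 to 476, 670 to 804 and 573 to 585. On the deposited FPKM, which were scaled by library totals, the sums of all 26 kept that order, at 597 to 675, 1239 to 1254 and 803 to 830. Without those 2 genes they did not, and recovered libraries were highest at 646 to 658, above chilled ones at 542 to 614 and unchilled ones at 476 to 534.

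Genes known to control autophagy were listed apart by their descriptions, and 17 were tested (the genes named from this list were chosen after their values were seen). The NBR1 homolog MELO3C002297.2, a receptor that brings cargo to ATG8, was at 114, 87 and 85.5 in unchilled, 305, 256 and 274 in chilled and 135, 153 and 140 in recovered libraries. The groups did not overlap, and the gene rose by 1.54 in the cold (adjusted p = 4.0e-06). Beclin 1 (MELO3C022308.2), a subunit of the lipid kinase complex that marks the membrane, went from a range of 29.7 to 33.5 to one of 60.5 to 62.9, a log2 fold change of 1.00 that fell just short of the threshold and passed it under DESeq2 at 1.05.

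Subunits of SnRK1, the kinase that senses low energy and promotes autophagy, moved both ways. The regulatory subunit gamma-1 (MELO3C026210.2) was at 48.7, 59.8 and 51.3 in unchilled, 281, 325 and 314 in chilled and 82, 70.9 and 82.1 in recovered libraries and rose by 2.52 (adjusted p = 8.2e-08). The beta-2-like subunit MELO3C008009.2 fell by 2.39, from a range of 17.9 to 25.5 in unchilled to one of 3.52 to 4.63 in chilled libraries, and the beta-2-like subunit MELO3C025522.2 by 1.45. In all, 3 of the 17 rose and 5 fell in the cold (17.6% and 29.4%, against 22.1% and 26.2% of all tested genes). After the warm day 7 rose and 2 fell (41.2% and 11.8%, against 25.1% and 25.3%). With library totals the counts were 3 and 7, and 8 and 2. There all tested genes had 14.9% and 37.9%, and 36.4% and 17.2%.

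Trafficking genes moved in both directions in the cold, and with TMM scaling so did each of their 7 families, while with library totals no coatomer gene rose. In chilled against unchilled fruit 35 of 163 rose and 26 fell, 37.4% called, against 48.3% of all tested genes, the median log2 fold change was 0.08, and the libraries did not overlap for 134 (82.2%, against 78.3% of all tested genes). After the warm day 33 rose and 30 fell, 38.7% called, against 50.4%, with a median of -0.01 and no overlap for 131 (80.4%, against 79.9%). With library totals these counts were 14 and 49 in the cold and 57 and 14 after it. Over all tested genes the shares higher and lower in the cold were 22.1% and 26.2% with TMM and 14.9% and 37.9% with library totals, and after the warm day 25.1% and 25.3%, and 36.4% and 17.2%. The counts of each family below are to be read beside these shares. At an adjusted p below 0.05 with no fold threshold 68 of the 163 were higher and 58 lower in the cold (36.2% and 39.2% over all tested genes), and 61 and 63 after the warm day (37.8% and 39.3%). The summed level of the 221 genes was 4085 to 4373 in unchilled, 6246 to 6332 in chilled and 4806 to 4977 in recovered libraries, while on the deposited FPKM unchilled and chilled libraries overlapped, at 4537 to 4937 and 4773 to 5120. Of the 163, 85 were called in none of the 3 comparisons, 52.1% against 39.7% of all tested genes. A further 22 rose in the cold and fell afterwards (18.6% over all tested genes), and 24 fell in the cold and rose afterwards (20.7%).

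**Figure D2:**
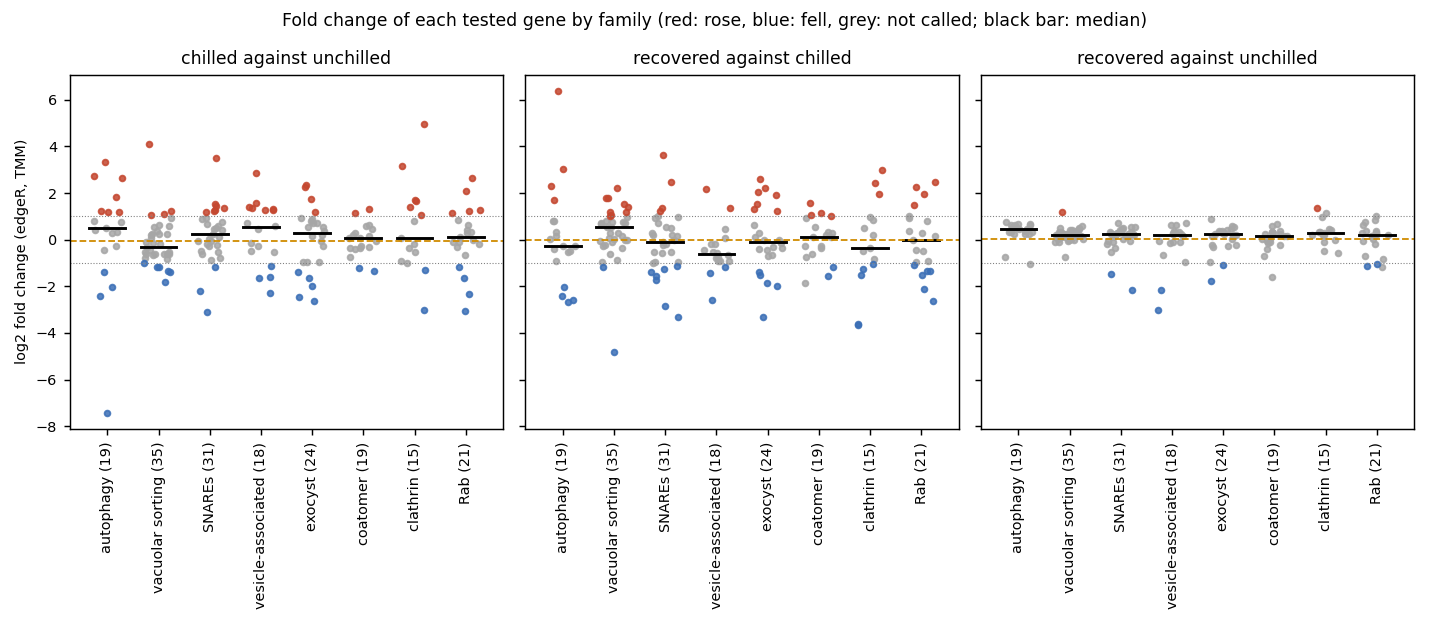
Log2 fold change (edgeR, TMM scaling) of each tested gene by family, with the number tested in brackets, in the 3 comparisons; points are genes, black bars family medians, dotted lines the threshold of 1 and the dashed line the median of all tested genes. In recovered against unchilled fruit most points lie within the threshold, while in the other panels each family has genes beyond it on both sides. The point at -7.43 is the short autophagy gene without a count in chilled fruit, whose fitted value is not a measured fold.

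**Figure D3:**
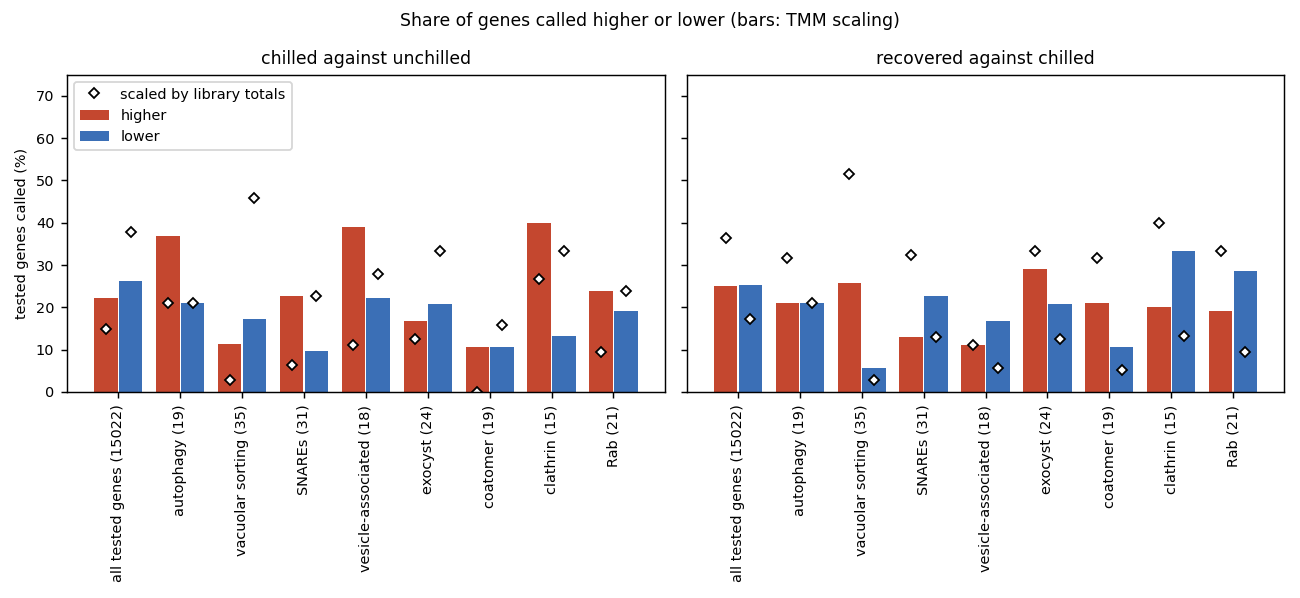
Share of tested genes called higher (red) or lower (blue) with TMM scaling, for all tested genes and each family (number tested in brackets), in chilled against unchilled fruit and recovered against chilled fruit. Open diamonds give the same shares with library totals, which in the cold stand lower for the red and higher for the blue bar of all tested genes (14.9% and 37.9%), and the other way after the warm day (36.4% and 17.2%).

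Among the 35 tested vacuolar sorting genes 4 rose and 6 fell in the cold, and 9 rose and 2 fell after the warm day, with median log2 fold changes of -0.31 and 0.56. With library totals 1 rose and 16 fell in the cold, and 18 rose and 1 fell after it. VPS2 is a subunit of ESCRT-III, the complex that pinches vesicles into endosomes, and its homolog MELO3C024361.2 was at 72.3, 85 and 77.7 in unchilled, 25, 33.7 and 32.3 in chilled and 81.2, 68.6 and 88.3 in recovered libraries. The chilled libraries were the lowest and the other groups overlapped. It fell by 1.37 ± 0.14 and rose by 1.39 ± 0.14.

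The other VPS2 homolog, MELO3C015505.2, was at 55.5, 73.3 and 70.3, then 152, 133 and 132, then 88.2, 71.7 and 70.2. Its chilled libraries were the highest. It rose by 1.06 ± 0.13 (adjusted p = 4.9e-05), a call that ended without the first unchilled library (0.93), without the first chilled library (1.00), with all genes tested (0.92) and with library totals (0.56).

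GARP is a complex that tethers endosome-derived vesicles to the Golgi, and its subunit VPS52 (MELO3C008109.2) was at 18.3, 16.9 and 18.5 in unchilled, 5.32, 4.89 and 4.91 in chilled and 25.1, 23.7 and 22.3 in recovered libraries. The 3 groups did not overlap. VPS52 fell by 1.83 ± 0.09 (adjusted p = 1.2e-07) and rose by 2.24 ± 0.09 (adjusted p = 4.3e-08), and it overlaps MELO3C029801.2. Its partner VPS53 (MELO3C026391.2) fell by 1.00 ± 0.07, from a range of 31.4 to 32.6 in unchilled to one of 15.6 to 16.2 in chilled libraries, just past the threshold. DESeq2 gave -0.96 and did not call it, and without the third unchilled or the first chilled library it was not called either (-0.99 each). Another subunit, VPS54 (MELO3C007016.2), had -0.51 ± 0.08, not called (-1.01 and called with library totals).

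Retromer returns sorting receptors from endosomes, and its core subunit VPS26 had 2 tested genes (named after their values were seen, like VPS53, VPS54 and VPS27 MELO3C007345.2). MELO3C022500.2 was at 6.95, 9.34 and 9.46 in unchilled, 2.94, 3.41 and 3.81 in chilled and 13.6, 8.78 and 12.8 in recovered libraries, and it fell by 1.34 ± 0.22 and rose by 1.79 ± 0.22. The more abundant MELO3C008978.2 had -0.77 ± 0.12 in the cold, not called, and rose by 1.02 ± 0.12 after it, a call lost without the first or the third chilled or the first or the third recovered library (0.94 to 1.00). With library totals its cold value was called, at -1.27.

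Vacuolar sorting receptors bind soluble proteins on their way to the vacuole, and 2 of their genes were tested. MELO3C009099.2 was at 29.8, 28.5 and 31 in unchilled, 80, 60.6 and 66.9 in chilled and 30.9, 38.4 and 37 in recovered libraries and rose in the cold by 1.21 ± 0.12 (0.71 and not called with library totals). MELO3C007003.2 was at 46.9, 44.3 and 46.9, then 27.6, 33.4 and 30.1, then 108, 98.3 and 111. Here the 3 groups did not overlap, and the recovered libraries were the highest. Its cold value of -0.60 ± 0.09 was not called, but it was called lower with library totals (-1.09) and with limma on log2(FPKM + 1) and log2(FPKM + 0.1) (-1.07 and -1.10), which use the deposited FPKM. It rose by 1.80 ± 0.09 after the warm day (adjusted p = 1.4e-07).

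VPS27 proteins of yeast recognise ubiquitin-tagged cargo at the endosome, and 2 neighbouring genes on chromosome 8, 2881 bases apart, carry that name. MELO3C007347.2 rose by 1.11 ± 0.09, from a range of 17.7 to 20.9 in unchilled to one of 39.2 to 44.2 in chilled libraries, and fell by 1.16 ± 0.09. The rarer MELO3C007345.2 was at 0.24, 0.165 and 0.401 in unchilled, 4.88, 5.26 and 3.94 in chilled and 0.223, 0.0554 and 0.194 in recovered libraries. This gene passed the filter of a mean above 1 FPKM only through its chilled libraries, so a large rise was built into its being tested. It rose by 4.09 ± 0.42 (adjusted p = 1.5e-05) and overlaps the gene MELO3C007346.2. With library totals MELO3C007347.2 was called in neither comparison (0.61 and -0.66).

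Of 31 tested genes matched by the SNARE and syntaxin words 7 rose and 3 fell in the cold, with library totals 2 and 7. The 31 include 4 genes for SNARE-associated Golgi proteins and 1 for KEULE, which are not SNAREs themselves. None of these was called in the cold with TMM. The syntaxins gave the widest range. Syntaxin-124 (MELO3C013005.2), whose Arabidopsis relative acts at the plasma membrane of pollen tubes, was at 3.21, 3.7 and 3.99 in unchilled, 37.9, 43.8 and 40.3 in chilled and 3.11, 3.67 and 5.33 in recovered libraries. Unchilled and recovered libraries overlapped, and all chilled ones lay far above. It rose by 3.48 ± 0.19 (adjusted p = 3.1e-07) and fell by 3.33 ± 0.19, and it overlaps MELO3C013006.2.

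Syntaxin-31 (MELO3C025172.2; chromosome 10, 9614707 to 9617712, plus strand), a SNARE of the Golgi, gave the mirror image, with 16.1, 16.3 and 16.2 in unchilled, 1.85, 2.09 and 1.73 in chilled and 24.3, 23.6 and 22.4 in recovered libraries. The 3 groups did not overlap, and recovered fruit was highest. It fell by 3.10 ± 0.12 (adjusted p = 4.1e-08) and rose by 3.63 ± 0.12 (adjusted p = 2.3e-08). Bet1-like SNARE 1-1 (MELO3C012982.2), which acts between the endoplasmic reticulum and Golgi, fell by 1.18 ± 0.25 from a range of 5.03 to 5.39 to one of 1.49 to 3.09, though without the first chilled library the value was -0.95 and not called.

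At the trans-Golgi network, syntaxin-61 (MELO3C022490.2, named after its values were seen) rose by 1.44 ± 0.14 from a range of 18.3 to 26.1 in unchilled to one of 58.3 to 67 in chilled libraries. The vesicle SNARE 12-like gene MELO3C023882.2, of a type known in Arabidopsis for vacuolar and autophagic traffic, rose by 1.55 ± 0.09 from a range of 18.8 to 21.9 to one of 55 to 62.7. Both fell again, by 1.54 and 1.38. With library totals syntaxin-61 had 0.94 in the cold and MELO3C023882.2 had -0.88 after the warm day, neither called. The most abundant SNARE gene, a syntaxin/t-SNARE family gene (MELO3C017467.2) at 62.7 to 92.5 in all libraries and overlapping MELO3C017468.2, had 0.11 ± 0.09 in the cold and 0.19 ± 0.09 after it.

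Of the 18 tested genes named vesicle-associated, 7 rose and 4 fell in the cold, and with library totals 2 and 5. They are of 2 kinds: VAMPs, the SNAREs carried by vesicles, and VAPs, proteins of the endoplasmic reticulum that anchor it to other membranes. Among 9 tested VAMP genes 5 rose and 1 fell in the cold, and with library totals 2 rose and 2 fell. MELO3C006328.2 was at 19.6, 30.8 and 29 in unchilled, 200, 185 and 192 in chilled and 33.3, 31.7 and 31.4 in recovered libraries. The chilled libraries stood far above all others, and the gene rose by 2.86 ± 0.15 (adjusted p = 2.4e-07) and fell by 2.58 ± 0.15.

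The most abundant gene of that name, MELO3C021777.2, was at 131, 141 and 140 in unchilled, 306, 343 and 336 in chilled and 177, 174 and 172 in recovered libraries, with no overlap between groups. It rose by 1.25 ± 0.08, with library totals 0.76 and not called. MELO3C026705.2 rose by 1.56 ± 0.11, from a range of 32.8 to 43.5 to one of 112 to 121, and its recovered libraries, at 56.4 to 65.9, stayed between the groups (0.65 ± 0.11 against unchilled fruit, adjusted p = 0.0024, under the fold threshold).

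Among the VAPs, the 4-2-like gene MELO3C018183.2 fell by 2.27 ± 0.19, from 22.7, 22.6 and 17.1 in unchilled to 4.52, 4.76 and 3.65 in chilled libraries, and rose to 23.2, 16.4 and 18.8. VAP 1-2 (MELO3C005536.2) rose by 1.35 ± 0.08, from a range of 34.9 to 38.9 to one of 89.8 to 96.4 (0.86 with library totals). VAP 1-3-like (MELO3C015369.2) fell by 1.12 ± 0.14, from a range of 16.8 to 19 to one of 7.25 to 9.6. VAP 1-3 (MELO3C021149.2, named after its values were seen) was at 49.9 to 58 in all 9 libraries, with -0.15 ± 0.07 in the cold. VAP 1-2 and ATG8 MELO3C005538.2 lie 14759 bases apart on chromosome 9, and VAP 1-3 and ATG8 MELO3C021148.2 lie 1878 bases apart on chromosome 11, all on the plus strand.

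The exocyst is built of a core (among others SEC5, SEC6 and EXO84) and of EXO70 proteins, which bind it to the plasma membrane. Of 24 tested exocyst genes 4 rose and 5 fell in the cold (library totals 3 and 8), and 7 rose and 5 fell after the warm day (8 and 3). Of the 11 tested EXO70 genes 3 rose and 3 fell in the cold (3 and 4 with library totals). The EXO70B1-like gene MELO3C020519.2 was at 61.2, 43.5 and 55.8 in unchilled, 283, 270 and 272 in chilled and 27.5, 30.5 and 25.7 in recovered libraries. The groups did not overlap, and recovered libraries were the lowest. It rose by 2.36 ± 0.13 and fell by 3.30 ± 0.13 (adjusted p = 5.3e-08), and at -0.94 ± 0.13 against unchilled fruit it missed the fold threshold, which it passed without the second unchilled (-1.07) or second recovered library (-1.01).

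EXO70B1 (MELO3C002359.2), a form linked in Arabidopsis to transport into the vacuole, was at 33.1, 30.5 and 31.9 in unchilled, 146, 159 and 154 in chilled and 43.8, 42.4 and 41.8 in recovered libraries. No groups overlapped, and it rose by 2.26 ± 0.07 (adjusted p = 1.9e-08). EXO70A1-like MELO3C020708.2 rose too, by 1.76 ± 0.25. The EXO70A1 genes MELO3C011181.2 and MELO3C022677.2 fell by 2.63 ± 0.28 and 2.46 ± 0.21, the former from a range of 13.4 to 17.4 to one of 1.61 to 3.68 and the latter from a range of 8.58 to 10.4 to one of 1.15 to 2.08.

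In the core, the SEC6 gene MELO3C030259.2 fell by 2.003 ± 0.13, from 34.5, 41.6 and 33.7 in unchilled to 9.84, 9.37 and 8.23 in chilled libraries, and rose by 2.61 ± 0.14 to 55.8, 50.6 and 60.6. With 678 bases it is far shorter than the other SEC6 gene, MELO3C019945.2 (3516 bases), which had -0.97 ± 0.08 in the cold, or -1.47 and called with library totals. SEC5A-like (MELO3C024093.2) fell by 1.66 ± 0.09, from a range of 26.3 to 29.2 to one of 8.14 to 9.59, and rose by 2.04 ± 0.09, and it overlaps MELO3C028876.2. EXO84B (MELO3C024298.2) rose by 1.17 ± 0.18, to 47.3, 29.2 and 29.7, a call that ended without the first chilled library (0.91) and with library totals (0.66). SEC6 MELO3C019945.2, SEC5A-like and EXO84B were named after their values were seen.

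Coatomer, the coat of vesicles returning from the Golgi, had the smallest share of called genes among the 7 families in the cold, 21.1%, against 48.3% of all tested genes. After the warm day its share was 31.6%, against 50.4%, and not the smallest (27.8% for genes named vesicle-associated). The cold share includes 7 beta prime genes of uncertain values (below), of which 1 was called. Of 19 tested genes 2 rose and 2 fell in the cold (library totals 0 and 3), and 13 were called in no comparison. Coatomer beta (MELO3C025796.2) was at 46.8, 49.8 and 52 in unchilled, 114, 127 and 130 in chilled and 54.8, 57.7 and 54.8 in recovered libraries, and it rose by 1.32 ± 0.08 (0.83 with library totals). The delta subunit gene MELO3C007300.2 was at 20.7, 26.7 and 24.5, then 10.4, 10.4 and 10.3, then 33.1, 29.3 and 31.5, and it fell by 1.21 ± 0.11 and rose by 1.59 ± 0.11. It overlaps MELO3C032908.2.

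The more abundant delta gene, MELO3C009240.2, at 61.5 to 108 in all libraries, had 0.07 ± 0.14 in the cold, and zeta-1-like (MELO3C007161.2) fell by 1.36 ± 0.13, from a range of 22.8 to 24.7 to one of 9.01 to 9.46. The beta prime name is on 18 genes, of which 16 are shorter than 1000 bases and 8 had no count, so reads among these copies may have been split and their values are uncertain. Of the 7 tested, MELO3C030100.2 rose by 1.16 ± 0.17, a call that ended without the first unchilled library (0.99) and with library totals (0.66).

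Of 15 tested clathrin genes 6 rose and 2 fell in the cold (library totals 4 and 5). Clathrin cages are made of heavy and light chains. The light chain gene MELO3C007298.2 was at 95.7, 98.6 and 108 in unchilled, 290, 327 and 334 in chilled and 138, 127 and 138 in recovered libraries. The groups did not overlap, and it rose by 1.65 ± 0.09 (adjusted p = 2.4e-07) and fell by 1.24 ± 0.09 (that value was -0.74 and not called with library totals). A second light chain, MELO3C003242.2, rose by 1.04 ± 0.13, which was not called without the third unchilled (0.99) or the third chilled library (0.95), with all genes tested (0.90) or with library totals (0.55). The heavy chain MELO3C008306.2 had -0.34 ± 0.09, from a range of 86.7 to 107 to one of 72.5 to 77.8, not called.

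Epsins bend the membrane at clathrin sites, and of 6 tested 2 rose and 1 fell in the cold (2 and 2 with library totals), and the 3 called with TMM are described as EPSIN 2. MELO3C011512.2 rose by 1.69 ± 0.12, from 27.2, 33.4 and 38.5 in unchilled to 108, 108 and 103 in chilled libraries. MELO3C020644.2 fell by 3.00 ± 0.33, from 22.1, 13 and 15.4 to 3.04, 1.69 and 1.64, and was at 17, 21.4 and 12.2 in recovered libraries. MELO3C006413.2, near the lower limit of what was tested, rose by 3.15 ± 0.48 to 3.65, 3.77 and 3.79. This gene too passed the filter of a mean above 1 FPKM only through its chilled libraries, so a large rise was built into its being tested.

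Clathrin assembly proteins link the cage to the membrane, and MELO3C003976.2 gave the largest rise in chilled against unchilled fruit of all tested members. It was at 0.284, 0.261 and 0.302 in unchilled, 10.8, 9.55 and 6.61 in chilled and 0.645, 0.495 and 1.04 in recovered libraries, with no overlap between groups. It passed the filter of a mean above 1 FPKM only through its chilled libraries, so a large rise was built into its being tested. It rose by 4.98 ± 0.34 (adjusted p = 1.0e-06) and fell by 3.61 ± 0.30. The far more abundant assembly gene MELO3C003700.2 rose by 1.39 ± 0.09, from a range of 40.4 to 49.1 to one of 113 to 125 (0.89 with library totals). MELO3C006413.2, MELO3C003242.2, MELO3C008306.2 and MELO3C003700.2 were named after their values were seen.

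Of 21 tested Rab genes 5 rose and 4 fell in the cold (library totals 2 and 5), and 4 rose and 6 fell after the warm day (7 and 2). Plant RABA proteins, relatives of Rab11, act between the trans-Golgi network and the plasma membrane. RABA2a (MELO3C016491.2) was at 27.3, 33.9 and 33.1 in unchilled, 219, 182 and 193 in chilled and 33.8, 33.2 and 30.2 in recovered libraries. Unchilled and recovered libraries overlapped, and it rose by 2.66 ± 0.11 (adjusted p = 7.0e-08) and fell by 2.61 ± 0.11.

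RABA1b-like (MELO3C016125.2) was at 25.8, 24.7 and 21.9, then 5.34, 5.15 and 4.16, then 27.2, 29.3 and 26.1. It fell by 2.31 ± 0.13 (adjusted p = 3.3e-07) and rose by 2.50 ± 0.13. RABA4c (MELO3C023961.2) rose by 1.25 ± 0.20, to 77.9, 46.7 and 50.1, and fell by 2.09 ± 0.21 to between 11.6 and 15.2. RABA6a-like (MELO3C017352.2) rose by 2.11 ± 0.38, from a range of 1.35 to 1.98 to one of 6.55 to 6.98, and fell by 1.35 ± 0.36 (-0.84 and not called with library totals).

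RABE proteins serve secretion from the Golgi, and the RABE1c-like genes MELO3C013681.2 and MELO3C023861.2 (the second named after its values were seen) fell by 1.63 ± 0.23 and 1.18 ± 0.10 and rose by 2.24 ± 0.23 and 1.47 ± 0.10. RABF2b (MELO3C021803.2), a Rab5 of the endosome on the route to the vacuole, was the most abundant Rab gene tested and rose by 1.15 ± 0.13, from 88.6, 97.9 and 93.6 to 258, 181 and 182. Its first chilled library was the highest, and without it the value was 0.96 and no longer called, as for RABA4c at 0.98. With library totals these 2 values were 0.64 and 0.74, also not called.

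Related genes that moved in opposite directions were counted by the orthology codes of the table. Among the codes that 2 or more tested genes share, 6 of the 29 that members carry had both a gene that rose and one that fell in the cold (20.7%), against 260 of 1304 codes over all tested genes (19.9%). The 6 codes are those of ATG8, VPS2, EXO70, epsin, the Rab11 type and the VAMP type of MELO3C006328.2. Pairs of genes of the same family, chosen after their values were seen, are set side by side in the plot of opposite pairs. Its ATG18, syntaxin and coatomer pairs do not belong to those 6 codes, and its coatomer pair holds different subunits, beta and delta.

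**Figure D4:**
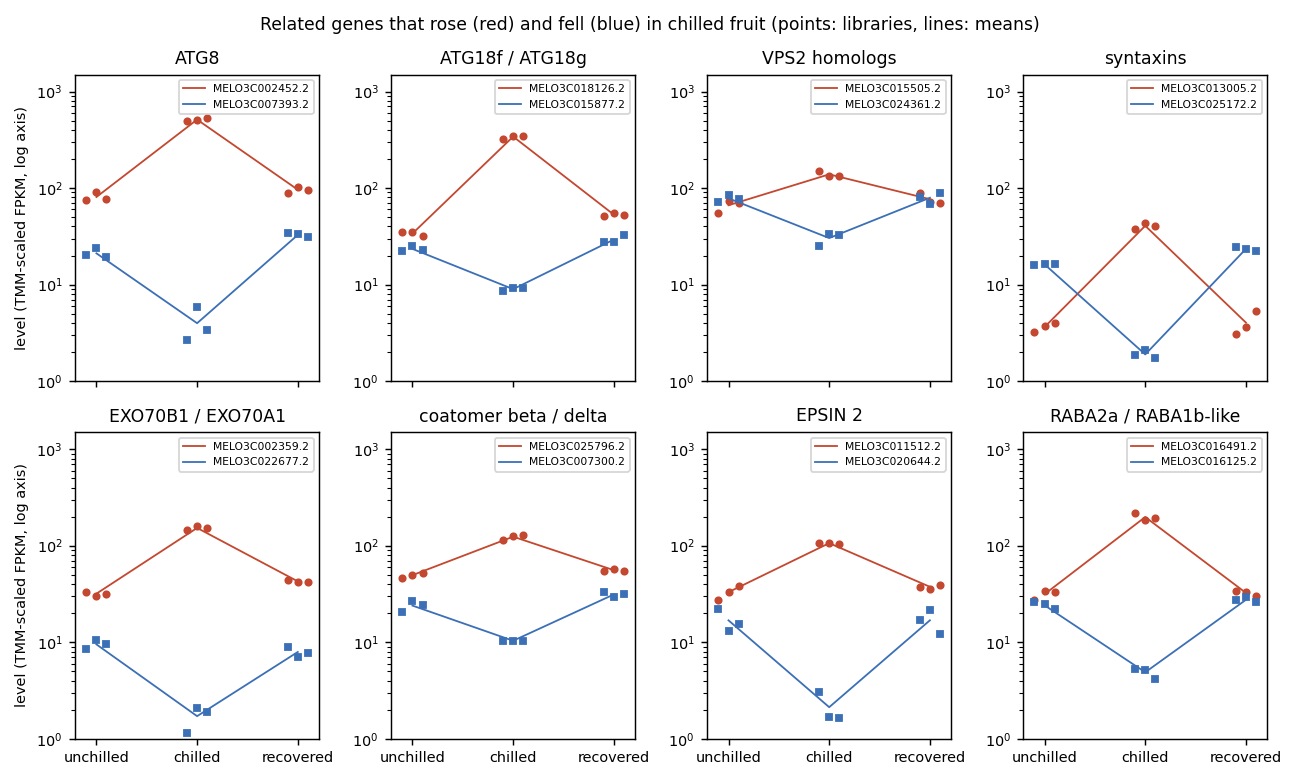
Level (TMM-scaled FPKM, log axis) of 8 pairs of genes of the same family, not all of which share an orthology code, in unchilled, chilled and recovered fruit. Points are the 3 libraries of each group and lines join group means. In each pair 1 gene (red) is highest and the other (blue) lowest in chilled fruit, as for RABA2a at 182 to 219 and RABA1b-like at 4.16 to 5.34.

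Between recovered and unchilled fruit 10 of 163 trafficking genes were called, 2 higher and 8 lower (6.13%, against 12.8% of all tested genes), and 3 and 8 with library totals (3.71% and 9.12% over all tested genes). The libraries did not overlap for 96 of the 163 (58.9%, against 52.9% of all tested genes). The median log2 fold change was 0.21, against 0.01 for all tested genes, and 117 of 163 values were above 0 (71.8%, against 50.8%). At an adjusted p below 0.05 without a fold threshold 47 were higher and 13 lower (28.8% and 7.98%, against 17.4% and 19.1% of all tested genes). The 2 higher genes were the sorting receptor MELO3C007003.2, at 1.20 ± 0.09 (adjusted p = 6.3e-05), and the clathrin assembly gene MELO3C003976.2, at 1.37 ± 0.36 (adjusted p = 0.016). The latter call ended without the second unchilled (1.31) or the third recovered library (1.00).

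Of the 8 lower genes, 4 were named by the rule. Syntaxin-121 (MELO3C009548.2), a plasma membrane SNARE that serves secretion and defence in Arabidopsis, was at 28.4, 23.1 and 28.4 in unchilled, 69.3, 30.4 and 28 in chilled and 8.65, 5.02 and 4.21 in recovered libraries. Recovered libraries were below all others, and 1 chilled library was far above the other 2. Its log2 fold change in recovered against unchilled fruit was -2.16 ± 0.40 (adjusted p = 0.0040), while the cold value of 0.68 ± 0.38 was not called. The EXO70B1-like gene MELO3C013670.2, at 8.09, 4.5 and 4.03 in unchilled, 5.53, 4.73 and 3.7 in chilled and 2.12, 1.62 and 1.17 in recovered libraries, showed -1.76 ± 0.32 (adjusted p = 0.0032).

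EXO70A1 MELO3C011181.2, at 7.63, 6.25 and 6.95 in recovered libraries, lay between its chilled and its unchilled levels. It had -1.09 ± 0.26 against unchilled fruit (adjusted p = 0.010), and the call ended without the third unchilled library (-0.96). RABA5b (MELO3C021114.2) was at 12.5, 10.2 and 9.99 in unchilled, 0.407, 1.72 and 1.7 in chilled and 5.84, 5.63 and 3.63 in recovered libraries. Its groups did not overlap, but its call, at -1.11 ± 0.35 (adjusted p = 0.035), ended when any 1 of the 6 unchilled and recovered libraries was left out (from -1.23 to -0.92), and with limma on log2(FPKM + 0.1) (-1.11). With a replicate block it was -1.12 and not called either.

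The other 4 lower genes, all below 8 in unchilled fruit, were named after their values were seen. VAP 2-2-like (MELO3C006603.2) was at 2.39, 3.22 and 1.62 in unchilled, 1.19, 0.581 and 0.655 in chilled and 0.394, 0.214 and 0.28 in recovered libraries. This gene passed the filter of a mean above 1 FPKM only through its unchilled libraries, where it was highest. It was the 1 trafficking gene that fell in the cold and again after the warm day (that later call ended without the first chilled library, -1.06, and with library totals, -0.92), and its difference of -3.01 ± 0.42 (adjusted p = 0.00082) was the largest of the 10. The VAMP gene MELO3C020464.2 had -2.14 ± 0.41. Syntaxin-71 (MELO3C025764.2), which overlaps another syntaxin gene, MELO3C035168.2, had -1.47 ± 0.38, and -0.95 and no call without the second unchilled library. Rab11C (MELO3C025885.2) had -1.05 ± 0.33, a call that ended without the first or the third unchilled library or any of the recovered ones (from -1.09 to -0.91).

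**Figure D5:**
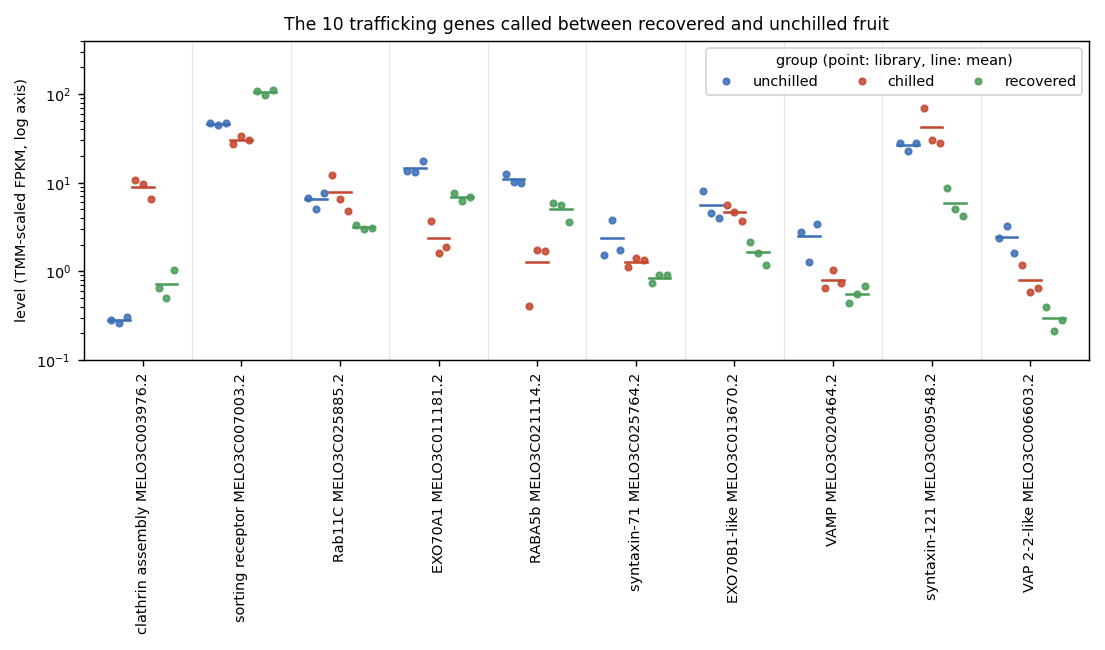
Level (TMM-scaled FPKM, log axis) in each library of the 10 trafficking genes called between recovered and unchilled fruit; points are libraries and short lines group means, and genes are ordered from the highest to the lowest fold change. The recovered libraries of the sorting receptor reach 98.3 to 111 against 44.3 to 46.9 in unchilled fruit, while those of syntaxin-121 lie at 4.21 to 8.65 against 23.1 to 28.4.

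Other genes of the same routes, found by separate words (vacuolar processing enzymes, further retromer and ESCRT genes, adaptor complexes and dynamins, ARF GTPases and their regulators, COPII and tethers, and the autophagy regulators above), were tested in the same fit. Their words also matched genes of other function, a cathepsin among the adaptor complexes and 8 subunits of the Sec61 translocon among COPII and tethers, of which 5 rose in the cold. Of 152, 38 rose and 33 fell in the cold (46.7% called, against 48.3% of all tested genes). After the warm day 36 rose and 33 fell (45.4% called, against 50.4%). With library totals the counts were 21 and 46, and 58 and 17 (14.9% and 37.9%, and 36.4% and 17.2% over all tested genes). Between recovered and unchilled fruit 2 were called, both lower (1.32%, against 12.8% of all tested genes called, 3.66% higher and 9.15% lower). The dynamin-related protein 4C-like gene MELO3C031194.2, of a family that pinches membranes, was at 28, 24.2 and 34.1 in unchilled, 14.2, 21.1 and 20 in chilled and 6.86, 6.94 and 8.56 in recovered libraries, a log2 fold change of -1.95. Of the ARF regulator genes described as AGD10, MELO3C034996.2 was at 3.18, 4.04 and 5.14 in unchilled fruit and at 0 in all 6 other libraries. It passed the filter of a mean above 1 FPKM only through its unchilled libraries, so a fall was built into its being tested. The far more abundant gene of that name, MELO3C013850.2, rose by 1.32 in the cold and fell by 1.48 after the warm day. Its mean was 151 for the chilled group, against 60.7 for the unchilled and 54.2 for the recovered group. It was not called between the latter 2 groups (-0.16). With library totals its cold and warm-day values were 0.82 and -0.97, neither called.

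ARF GTPases are the switches that recruit coatomer and clathrin adaptors, and their list also holds their regulators. Of its 32 tested genes, GTPases and regulators together, 12 rose and 6 fell in the cold. These were 37.5% and 18.8% with TMM, where all tested genes had 22.1% and 26.2%. With library totals 5 rose and 8 fell (14.9% and 37.9% over all tested genes). The ARF regulator AGD7 (MELO3C009269.2, named with the next 3 genes after their values were seen) was at 26.2, 23.2 and 29.7 in unchilled, 163, 154 and 156 in chilled and 23.3, 24.5 and 22.5 in recovered libraries, and it rose by 2.58 and fell by 2.75. Vacuolar processing enzymes mature proteins within the vacuole. Of their 3 tested genes, MELO3C005564.2 fell by 1.76, from 72.3, 240 and 241 to 43.6, 67.4 and 52.1, and rose to 437, 216 and 322. MELO3C025355.2, at 2.67 to 2.74 in unchilled fruit, fell to between 0 and 0.232, and MELO3C010763.2, the most abundant at 225 to 369, was not called.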

How the data were processed

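RNA of 9 libraries of ripe melon fruit was sequenced, 3 libraries in each of 3 groups that follow the labels. The authors trimmed reads with cutadapt (1.15) and aligned them with HISAT2 (2.0.5), the versions being those of the submitters' processing notes, while the study's methods name other versions of both. Per those methods the genome was that of DHL92 melon and reads were counted with HTSeq. The sources used here do not say whether the counting used strand, and the table names no build. The authors deposited 1 table with the read count and the FPKM of each gene in each library. The deposited FPKM equalled the count divided by gene length and library total, so they carried no correction for composition.

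Genes with a mean above 1 FPKM over the 9 libraries (15022 of 29980) were tested with edgeR 4.0.16 in R 4.3.3 (TMM scaling, robust quasi-likelihood fit of all 9 libraries, two-sided, Benjamini-Hochberg adjustment over all tested genes), and called where the adjusted p was below 0.05 and the log2 fold change beyond 1 in size. Values after ± are SD for levels and, for fold changes, the SE that the F statistic implies. The common biological coefficient of variation was 0.191. The script was tested on simulated counts. Named genes were, in each family, the most abundant gene, the 2 highest and 2 lowest called genes of the comparisons with chilled fruit and the 1 highest and lowest of recovered against unchilled fruit, without overlap between groups and with at least 5 FPKM in the higher group, and all tested autophagy genes. A further 19 members, and the genes named from other lists, were chosen after their values were seen. The members and lists were chosen with earlier results of these data known. Alternatives were DESeq2 1.42.0, its size factors, library totals, no filter, filterByExpr, limma 3.58.1 on log2(FPKM + 1) and log2(FPKM + 0.1), a replicate block, only the 2 groups compared, an adjusted p below 0.01, no fold threshold and each library left out. No sequences are shown, and the gene IDs were used as the table gives them.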

Additional observations from a re-analysis of the deposited data

How the results depend on the processing

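No called result changed sign under any alternative run. Without the fold threshold, the genes called in chilled against unchilled, recovered against chilled and recovered against unchilled fruit numbered 17, 16 and 14 for autophagy, 126, 124 and 60 for trafficking and 124, 127 and 53 for the other pathway genes. Between recovered and unchilled fruit, limma on log2(FPKM + 0.1) called 1 autophagy gene, limma on log2(FPKM + 1) called 6 trafficking genes and an adjusted p below 0.01 left 5. Leaving out 1 library at a time gave 10 to 11, 8 and 0 autophagy genes, 56 to 62, 61 to 71 and 8 to 11 trafficking genes and 67 to 72, 66 to 71 and 2 to 3 other pathway genes. Library totals ended 28 of the calls in the 237 pairs of a named member and a comparison and added 9, limma on log2(FPKM + 1) ended 33 and added 6, and limma on log2(FPKM + 0.1) ended 29 and added 10. Omitting the first chilled library ended 10. Libraries with the same replicate number shared no common deviation (correlations from -0.137 to 0.149), so the numbers were not taken as pairs. With a replicate block 11, 8 and 0 autophagy genes, 60, 64 and 9 trafficking genes and 71, 69 and 2 other pathway genes were called. The block ended 1 call of a named member, that of RABA5b. Genes near 1 FPKM rest on few counts.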
